A study of Mus musculus with 10 samples.

Results

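The 8 genes described here encode receptors and enzymes through which the autonomic nerves and circulating catecholamines act on heart muscle. They are the beta-adrenergic receptor genes Adrb1 and Adrb3, the alpha-1-adrenergic receptor genes Adra1a, Adra1b and Adra1d, the muscarinic receptor gene Chrm2, and the adenylyl cyclase genes Adcy5 and Adcy6. They were chosen by name, through the transcript that the array files give for each probe, and make up 8 of 22911 named genes and 12 of 56605 probes. Expression was measured in pieces of the heart wall of C57BL/6N mice, with 4 arrays of the right ventricle (RV), 3 of the left (LV) and 3 of the septum between them. The labels name no treatment, genotype, age or sex, so all groups share the strain and differ, as labelled, in the region alone. Each array holds the labelled RNA of 1 piece of tissue, and the design text says that separate individuals were used for each experiment. The labels do not say whether the RV, LV and septum pieces with the same number came from the same heart, and the p-values below measure the spread between these samples.

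In heart muscle, noradrenaline binds beta-adrenergic receptors, whose stimulatory G protein activates adenylyl cyclase. The cAMP that is made activates protein kinase A, which phosphorylates calcium channels and sarcomere proteins and raises the force and rate of the beat. Muscarinic receptors of the vagus nerve act through an inhibitory G protein that lowers cyclase activity and opens a potassium channel, and alpha-1 receptors act through Gq and phospholipase C.

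A level below is the log2 signal of a probe minus the 75th percentile of its array, so that 0 is the signal of a bright probe and negative levels are dimmer. Levels of different probes depend on the probe and were not set against each other. The arrays lay on 2 slides: replicates 1 and 2 of each region were on slide 1, and RV replicates 3 and 4 with replicate 3 of LV and septum were on slide 2. On each array 53.7% to 64.0% of the spots exceeded background clearly and 0 were saturated, and the number of arrays limits the precision of each value. All 10 cardiomyocyte markers were well above background on every array, with summed signals, as multiples of the 75th percentile, of 4352 to 4660 in RV, 4674 to 5260 in LV and 4312 to 5144 in septum. In tissue of mixed cells, fewer cells of a type and less RNA per cell cannot be told apart.

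With the region alone in the model, no tested receptor or cyclase gene was called between the regions. Of the 8 genes, 7 had a probe that stood well above background throughout 1 or more regions and were tested, and none of these 7 passed an adjusted p of 0.05 in any comparison. This was so for RV against LV, where 3.86% of all probes passed, for RV against septum, where 2.08% passed, for septum against LV, where 0% passed, and for the test over the 3 regions, where 2.78% passed. At an unadjusted p of 0.05, limma gave 0 of the 7 genes for RV against LV, 1 (Chrm2) for RV against septum and 0 for septum against LV, and the methods' analysis of variance also called none. Over all 30234 tested probes, limma gave 5992 at that unadjusted p for RV against LV, 4249 for RV against septum and 862 for septum against LV. For septum against LV, the analysis of variance called 167 after adjustment. The differences of the 7 genes lay between -0.29 and 0.17 for RV minus LV, between -0.22 and 0.46 for RV minus septum, and between -0.29 and -0.04 for septum minus LV. Their median size without sign was 0.19, 0.14 and 0.10 in these comparisons, beside 0.14, 0.12 and 0.07 over all probes. The arrays of the regions overlapped for each of the 7 genes in each comparison. The share of all tested probes whose arrays overlapped was not counted. The overlap was judged over arrays of both slides, between which 43.8% of all probes differed with the region in the model. It therefore does not show that the regions are alike. The 95% intervals reached from -0.83 to 0.56 for RV minus LV, so single genes may differ by up to that much.

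**Figure D1:**
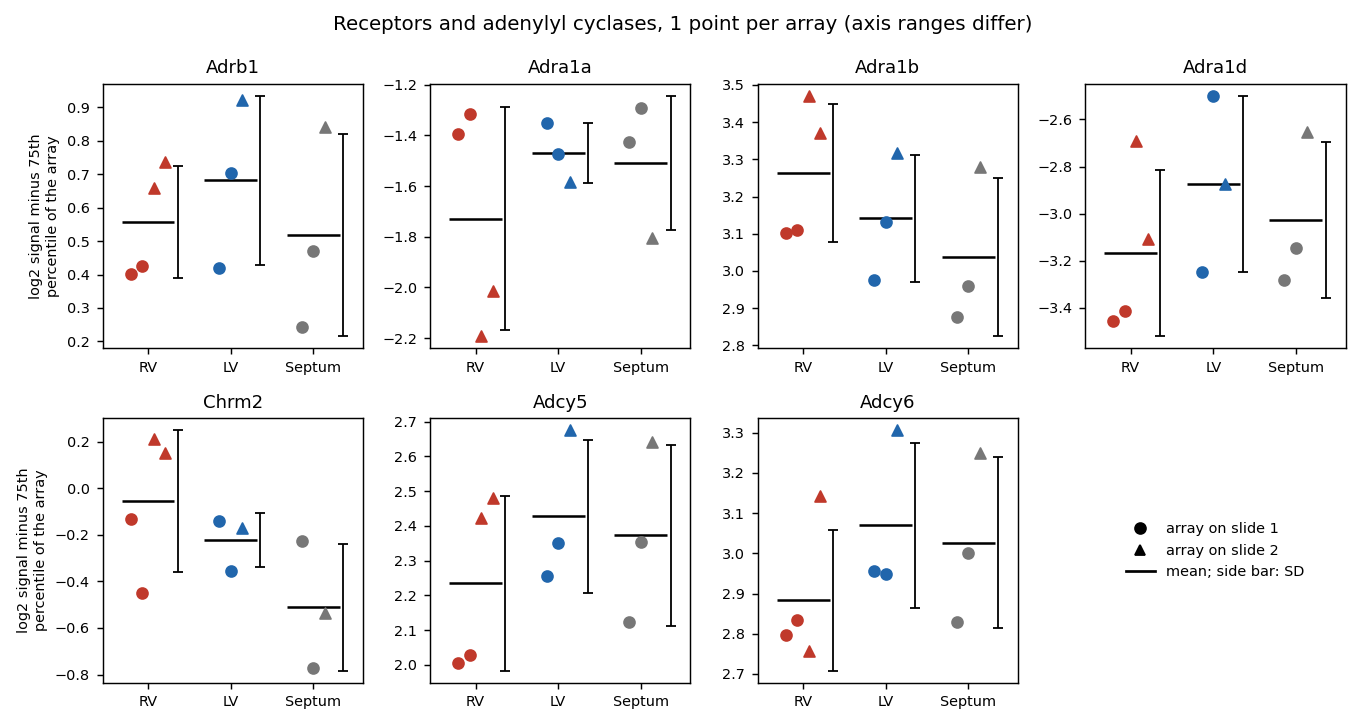
Level of the brightest tested probe of 7 genes on each array, as log2 signal minus the 75th percentile of the array, by region; circles are arrays of slide 1, triangles arrays of slide 2, the line is the mean and the side bar the SD. The regions overlap in each panel, and for Adrb1, Adra1b, Adra1d, Chrm2 and Adcy5 the RV arrays of slide 2 lie above those of slide 1.

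Adrb1 encodes the main beta-adrenergic receptor of cardiomyocytes. Its level was 0.40, 0.42, 0.66 and 0.74 on RV arrays 1 to 4, 0.42, 0.71 and 0.92 on LV arrays 1 to 3, and 0.24, 0.47 and 0.84 on septum arrays 1 to 3. The lowest and the highest array were thus a septum and an LV array, and the RV arrays lay between them. RV minus LV was -0.13 (SE 0.17, 95% interval -0.50 to 0.25, adjusted p = 0.74), and RV minus septum was 0.04 (interval -0.34 to 0.41). The means fell in the order LV (0.68 ± 0.25, SD, n = 3), RV (0.56 ± 0.17, n = 4) and septum (0.52 ± 0.30, n = 3), and no neighbours in that order differed beyond their spread.

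Adra1a, Adra1b and Adra1d encode the alpha-1 receptors, which couple to Gq. The level of Adra1b was 3.10, 3.11, 3.47 and 3.37 on RV arrays 1 to 4, 2.98, 3.13 and 3.32 on the LV arrays, and 2.87, 2.96 and 3.28 on the septum arrays. RV had the highest mean (3.26 ± 0.19, n = 4), followed by LV (3.14 ± 0.17, n = 3) and septum (3.04 ± 0.21, n = 3), with overlapping arrays. RV minus septum was 0.23 (SE 0.14, 95% interval -0.08 to 0.54, adjusted p = 0.52), and RV minus LV was 0.12 (interval -0.19 to 0.43). On each slide by itself both RV arrays exceeded the septum arrays, by 0.19 on slide 1 and 0.14 on slide 2, and with the slide in the model the difference was 0.17 (SE 0.06, adjusted p = 0.11), which did not pass.

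The level of Adra1a was -1.40 and -1.31 on RV arrays 1 and 2 of slide 1, and -2.19 and -2.02 on RV arrays 3 and 4 of slide 2. It was -1.35, -1.47 and -1.59 on the LV arrays and -1.43, -1.29 and -1.80 on the septum arrays. The low RV mean (-1.73 ± 0.44, n = 4) came from the slide 2 pair, as the RV arrays of slide 1 lay within the range of the other regions. RV minus LV was -0.26 (SE 0.22, adjusted p = 0.58) over all arrays, 0.06 within slide 1 and -0.52 within slide 2. A second Adra1a probe, assigned to another transcript, was not well above background on any array.

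The Adra1d probe that was tested was dim, between -3.46 and -2.69 in RV, -3.25 and -2.50 in LV, and -3.28 and -2.65 in septum. RV minus LV was -0.29 (SE 0.24, 95% interval -0.83 to 0.24, adjusted p = 0.56), which was the largest difference among the 7 genes in that comparison and had the widest interval. A second Adra1d probe was well above background on 1 of the 10 arrays.

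Chrm2 encodes the muscarinic receptor of the vagal response. Its level was -0.13, -0.45, 0.21 and 0.15 on RV arrays 1 to 4, -0.14, -0.35 and -0.17 on the LV arrays, and -0.23, -0.77 and -0.54 on the septum arrays. The order of the means was RV (-0.06 ± 0.30, n = 4), LV (-0.22 ± 0.12, n = 3) and septum (-0.51 ± 0.27, n = 3). Both RV arrays of slide 2 were the highest of the 10, and 2 of the 3 septum arrays were the lowest. RV minus septum was 0.46 (SE 0.18, 95% interval 0.06 to 0.85), a level 1.37-fold higher in RV, with an unadjusted p of 0.029 and an adjusted p of 0.28. Within slides it was 0.21 and 0.72, so that the difference kept its direction on both and did not pass the adjustment over all probes. For RV minus LV the value was 0.17 (interval -0.23 to 0.56), and for septum minus LV it was -0.29 (interval -0.71 to 0.13).

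Adcy5 and Adcy6 encode the major adenylyl cyclases of the cardiomyocyte, both inhibited by calcium. The level of Adcy5 was 2.01 and 2.03 on the RV arrays of slide 1 and 2.42 and 2.48 on those of slide 2. In LV it was 2.26 and 2.35 on slide 1 and 2.67 on slide 2, and in septum it was 2.12 and 2.35 on slide 1 and 2.64 on slide 2. Over all arrays the regions overlapped, but on each slide both RV arrays were lower than each LV and each septum array. Slide 2 held 1 LV and 1 septum array. The share of all tested probes set apart in this way on each slide was not counted, here, for Adra1b above or for Adcy6 below. RV minus LV was -0.19 (SE 0.17, 95% interval -0.58 to 0.19, adjusted p = 0.60) with the region alone in the model. Once the slide was added as a block, the difference was -0.26 (SE 0.07, interval -0.41 to -0.11, adjusted p = 0.029), a level 1.20-fold lower in RV. Blocking on the replicate number gave -0.27 (adjusted p = 0.031). Adcy5 was the only one of the 7 genes to pass with the slide as a block, in a fit in which 17.6% of all probes passed for RV against LV.

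The RV minus LV difference of Adcy5 was -0.29 within slide 1 and -0.22 within slide 2. With the slide as a block, leaving out 1 array at a time gave -0.28 to -0.23, and the call was lost in 6 of 10 fits, those without any 1 LV array and those without RV replicate 1, 2 or 4, with an adjusted p of up to 0.095. It was also lost when the filter on dim probes was dropped from the blocked fit (adjusted p = 0.13). RV minus septum was -0.21 with the slide as a block (adjusted p = 0.090), which did not pass.

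Adcy6 showed a like order at the same size. Its level was 2.80, 2.83, 2.76 and 3.14 on RV arrays 1 to 4, 2.96, 2.95 and 3.31 on the LV arrays, and 2.83, 3.0 and 3.25 on the septum arrays. On each slide the RV arrays were lower than the LV arrays, by 0.14 and 0.36 in the mean. RV minus LV was -0.19 (SE 0.14, adjusted p = 0.53), and -0.23 (SE 0.10, adjusted p = 0.15) with the slide as a block. A second Adcy6 probe, much dimmer, gave -0.19 (SE 0.28) and, with the block, -0.29 (SE 0.14, adjusted p = 0.18). Across the 10 arrays Adcy5 and Adcy6 had a correlation of 0.83, and of 0.74 after the mean of each slide was removed, which is a description of arrays that share slides and regions.

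**Figure D2:**
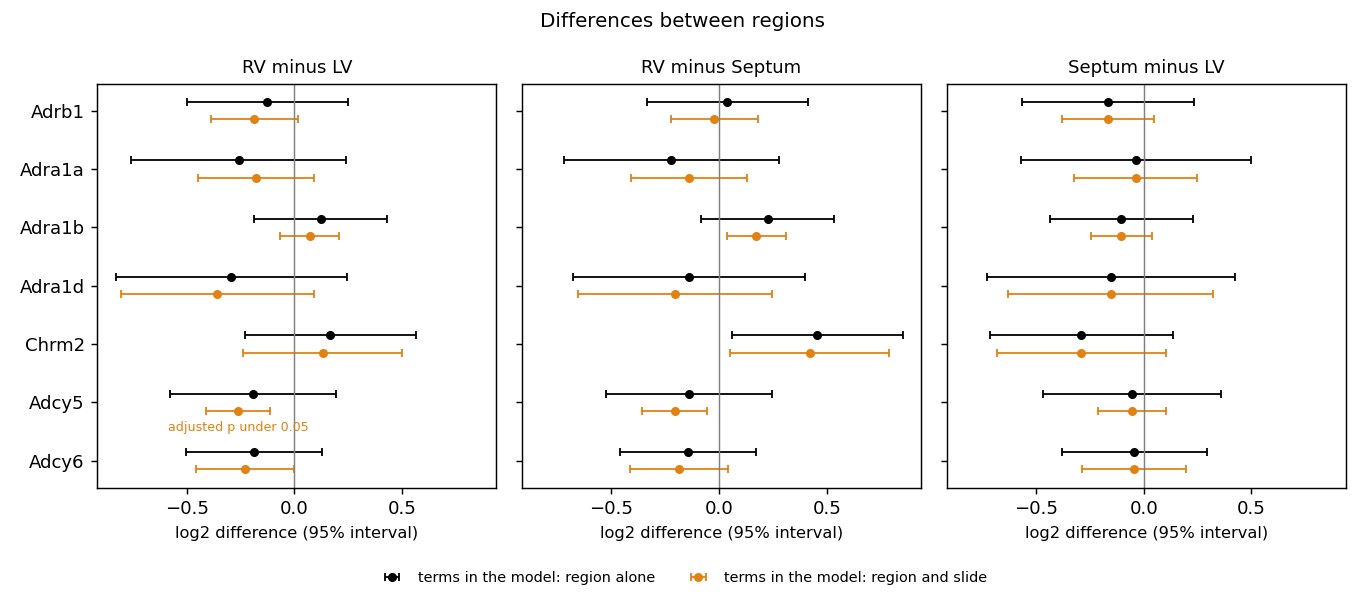
Log2 difference between regions for 7 genes with its 95% interval, from a model with the region alone (black) and with the slide added (orange). All black intervals but that of Chrm2 in RV minus septum include 0, and the orange interval of Adcy5 in RV minus LV, from -0.41 to -0.11, belongs to the only call.

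Several of these genes differed between the slides. With the region in the model, 5 of the 7 genes differed between slide 2 and slide 1, where 43.8% of all probes did. Adcy5 was higher on slide 2 by 0.41 (SE 0.06, adjusted p = 0.00098), Adrb1 by 0.36 (SE 0.08), Adra1b by 0.31 (SE 0.05) and Adcy6 by 0.25 (SE 0.08). Adra1a was lower on slide 2, at -0.50 (SE 0.10, adjusted p = 0.0050). The values for Adra1d (0.39, SE 0.17) and Chrm2 (0.21, SE 0.14) did not pass. Each slide held other samples as well as another scan, so these cannot be told apart.

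Adrb3 encodes the beta-adrenergic receptor best known from adipocytes, where it drives lipolysis and heat production. It is represented by 2 probes for the same transcript, and neither was well above background on every array of any region, so that Adrb3 was not among the genes tested. The probes went different ways. The probe with the lower mean read -3.59, -4.01, -2.48 and -1.54 on RV arrays 1 to 4, and was well above background on 3 of them, all but RV array 2. It read -6.63, -5.53 and -5.71 on the LV arrays and -5.20, -6.10 and -5.16 on the septum arrays, where it was not well above background on any. All 4 RV arrays were higher than each array of the other regions, and the RV arrays of slide 2 were the highest.

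Since this probe had only a bound in LV and septum, RV was at least 1.81-fold higher than LV and at least 2.08-fold higher than septum on the scale used here. These bounds set the mean of the 4 RV arrays, with RV array 2 at its measured value, against the lowest signal that counted as well above background on each LV or septum array. They do not carry over to another background correction (normexp), under which the measured means of RV and septum lay 1.01 apart on the log2 scale, less than the second bound on that scale. The adjusted p was 0.081 for RV against LV and 0.17 for RV against septum in a limma fit with no filter on dim probes. With the slide added as a block it was 0.031 and 0.067, in a fit where 2.18% of all probes passed for RV against LV, and 9 of 10 such fits that each left out 1 array lost the first call, all but that without septum replicate 1. These fits take the LV and septum readings at background as if they were levels.

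The other Adrb3 probe read -3.46, -3.25, -3.82 and -3.23 on RV arrays 1 to 4, -3.10, -3.41 and -3.87 on the LV arrays, and -3.22, -2.80 and -3.33 on the septum arrays. It was well above background on 3 RV, 1 LV and 2 septum arrays. Its RV minus LV difference, with no filter, was 0.02 (SE 0.23, 95% interval -0.50 to 0.54), and RV minus septum was -0.32 (SE 0.23, interval -0.84 to 0.20). A region difference of Adrb3 thus rests on 1 of 2 probes.

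Some markers of adipocytes were also highest in RV. Of 10 adipocyte markers, all tested, 8 were well above background on every array, and of these Cidec, Retn and Car3 were higher in RV than in LV, by 4.24 (adjusted p = 0.0031), 3.26 (adjusted p = 0.0081) and 4.93 (adjusted p = 0.0028). Cidec and Car3 were also higher in RV than in septum, by 2.19 (adjusted p = 0.043) and 2.71 (adjusted p = 0.032). Adipoq, the gene of the hormone adiponectin, read between -0.41 and 0.45 on the RV arrays, between -5.89 and -3.81 on the LV arrays, where it was not well above background on any, and between -2.92 and -1.02 on the septum arrays. Plin1, which coats lipid droplets, was well above background on 4 RV, 0 LV and 1 septum arrays. With only a bound in LV, the RV level of Adipoq exceeded it at least 14.5-fold (adjusted p = 0.0038) and that of Plin1 at least 4.33-fold (adjusted p = 0.0038). These adjusted p-values take the LV readings at background as if they were levels, and the Plin1 probe passed the filter through RV alone. The Plin1 call against septum (adjusted p = 0.033) rests on septum arrays of which 2 of 3 were not well above background. In all, 5 of the 10 markers were called for RV against LV, beside 3.86% of all probes. The other 5 markers were not called. Their RV minus LV was -0.19 for Plin4, -0.15 for Lep, -0.24 for Fabp4, -0.19 for Pparg and 0.14 for Lipe. The summed signal of the list was 133 to 160 in RV, 147 to 178 in LV and 144 to 176 in septum, most of it from Fabp4 and Plin4. Of the 5 brown adipocyte markers, Ucp1, which defines brown fat, was not well above background on any array, and none of the 3 tested was called. The part of adipocytes in the Adrb3 signal was not tested.

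**Figure D3:**
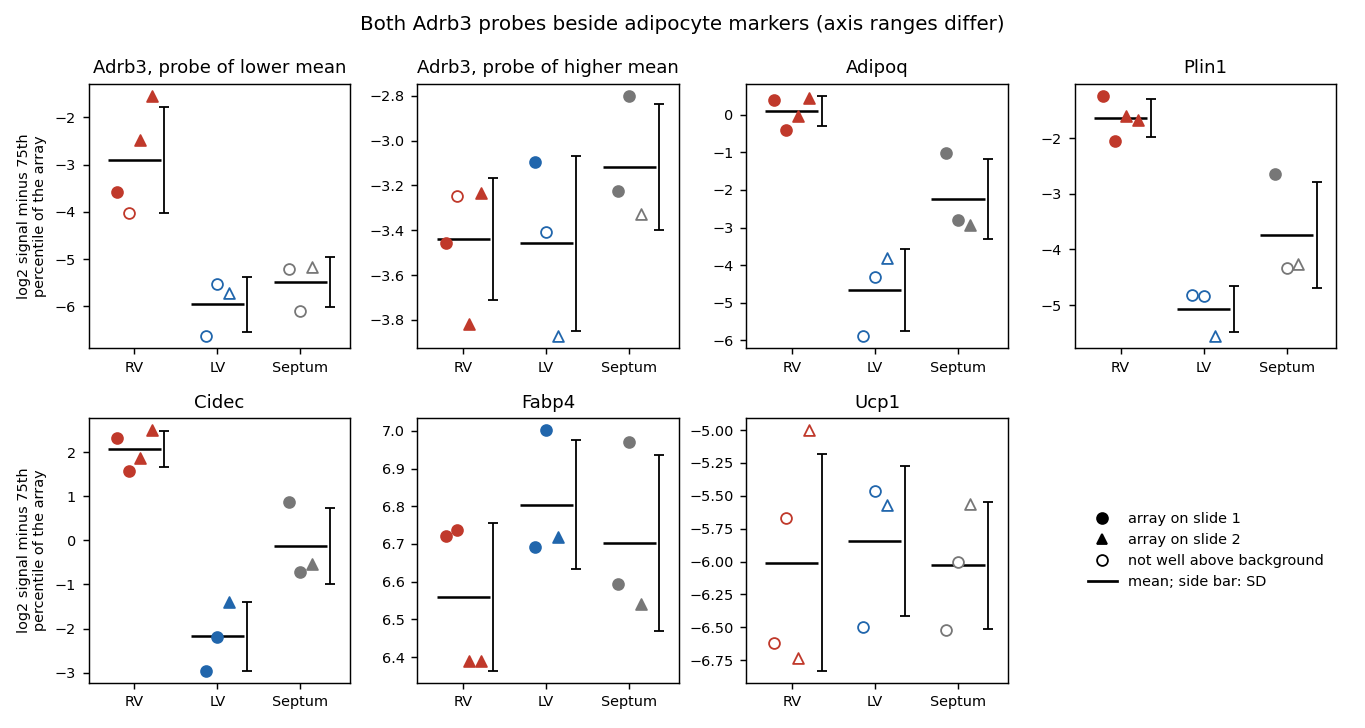
Both Adrb3 probes and 5 adipocyte transcripts on each array, as log2 signal minus the 75th percentile of the array; open symbols are arrays on which the probe was not well above background, the line is the mean and the side bar the SD. The first Adrb3 probe, Adipoq, Plin1 and Cidec are highest on the RV arrays, whereas the second Adrb3 probe, Fabp4 and Ucp1 overlap between regions.

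The rest of the pathway was examined in 113 genes around these receptors and cyclases, of which 98 were tested. For RV against LV, 9 of the 98 (9.18%) passed, 5 higher and 4 lower in RV, beside 3.86% of all probes. For RV against septum, 3 (3.06%) passed, 1 higher and 2 lower, beside 2.08% of all probes, and for septum against LV 0 passed. The median RV minus LV difference was -0.02 over the 98 genes and -0.04 over all probes. With the slide as a block, 27 genes (27.6%) passed for RV against LV (14 higher, 13 lower), beside 17.6% of all probes, and 15 (15.3%) for RV against septum (7 higher, 8 lower), beside 8.74%. Blocking on the replicate number gave 26 and 13, beside 14.9% and 7.12% of all probes. Most of these genes are expressed in several cell types of the heart wall.

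**Figure D4:**
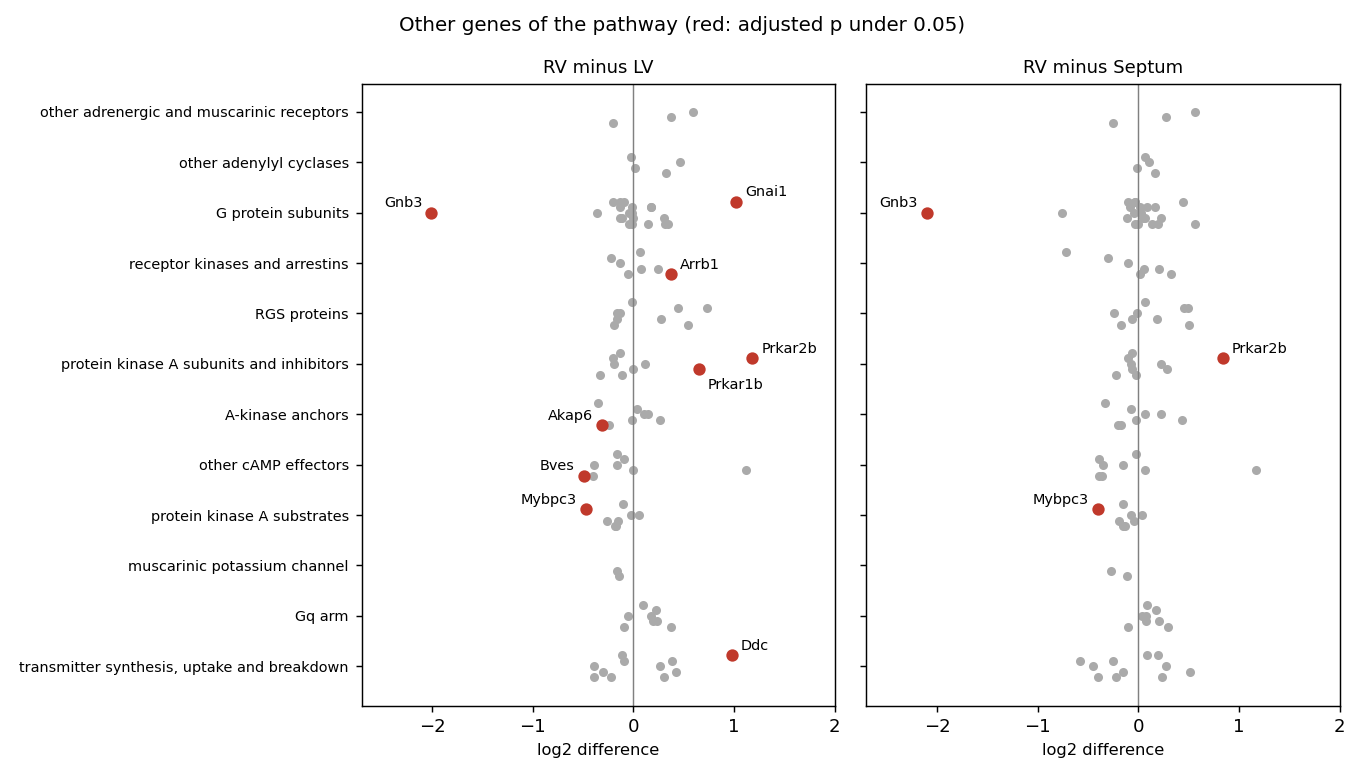
Log2 difference of RV minus LV (left) and RV minus septum (right) for 98 tested pathway genes, 1 point per gene and 1 line per group of genes; red points passed an adjusted p of 0.05. Gnb3 lies near -2 in both panels, and most other genes lie within 0.5 of 0.

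Among G protein subunits, 1 of 21 tested genes was higher in RV than LV and 1 was lower. Gnb3, a beta subunit of heterotrimeric G proteins, read -1.79, -1.97, -1.13 and -1.75 on RV arrays 1 to 4, 0.48, 0.33 and 0.23 on the LV arrays, and 0.40, 0.45 and 0.46 on the septum arrays. The RV arrays were thus all lower than any other, by 2.01 against LV (SE 0.17, adjusted p = 0.0018) and 2.10 against septum (SE 0.17, adjusted p = 0.00073), and both calls were kept in all 10 fits without 1 array. Gnai1, an inhibitory alpha subunit, read -0.77, -0.71, -0.03 and -0.14 in RV and -1.39, -1.74 and -1.15 in LV, a difference of 1.02 (adjusted p = 0.036). That call was lost in 6 of 10 such fits, those without any LV array, RV replicate 3 or 4 or septum replicate 1, with values of 0.86 to 1.15. Gnas, which encodes the stimulatory alpha subunit that couples beta receptors to the cyclases, gave -0.14 (adjusted p = 0.55).

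Protein kinase A is a tetramer of catalytic and regulatory subunits, and cAMP binds the regulatory ones. Of 9 tested subunits and inhibitors, 2 regulatory subunits rose in RV against LV and none fell with the region alone in the model. Prkar2b read -0.04, -0.15, -0.45 and -0.19 in RV, -1.45, -1.06 and -1.66 in LV, and -0.79, -1.13 and -1.23 in septum, with RV higher by 1.18 than LV (adjusted p = 0.0066) and by 0.84 than septum (adjusted p = 0.037). The first of these calls was kept in all 10 fits without 1 array, and the second was lost in 6, without RV replicate 1, 2 or 4, LV replicate 1 or septum replicate 2 or 3 (0.75 to 0.97 over the 10 fits). Prkar1b was higher in RV than LV by 0.65 (adjusted p = 0.049), and the call was lost in 9 of 10 such fits, all but that without septum replicate 2 (0.56 to 0.74). The catalytic subunit gene Prkaca gave -0.20 (adjusted p = 0.50) and the regulatory subunit gene Prkar1a -0.33 (adjusted p = 0.21). With the slide as a block both passed, at -0.26 (adjusted p = 0.022) and -0.37 (adjusted p = 0.042).

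Downstream of the kinase, Mybpc3, a thick filament protein that protein kinase A phosphorylates, read 8.66, 8.73, 8.79 and 8.80 in RV, 9.19, 9.23 and 9.22 in LV, and 9.06, 9.20 and 9.19 in septum. With the region alone in the model it was the only 1 of 8 tested substrates that passed, lower in RV by 0.47 than in LV (adjusted p = 0.0089) and by 0.40 than in septum (adjusted p = 0.025), and the second call was lost in 5 of 10 fits, without RV replicate 1, 2 or 4 or septum replicate 2 or 3 (-0.45 to -0.38). Pln, which encodes the calcium pump inhibitor phospholamban, gave -0.10 (adjusted p = 0.61) for RV minus LV. Bves, a membrane protein that binds cAMP, was lower in RV than LV by 0.49 (adjusted p = 0.042), and Akap6, which anchors protein kinase A at the nuclear envelope, was lower by 0.31 (adjusted p = 0.035). The Bves call was lost in 7 of the 10 fits without 1 array, those without any LV array, RV replicate 1, 2 or 4 or septum replicate 2 (-0.55 to -0.44). The Akap6 call was lost in 9, all but that without septum replicate 1 (-0.33 to -0.29), and the other 2 tested Akap6 probes gave -0.17 and -0.23 with no call.

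**Figure D5:**
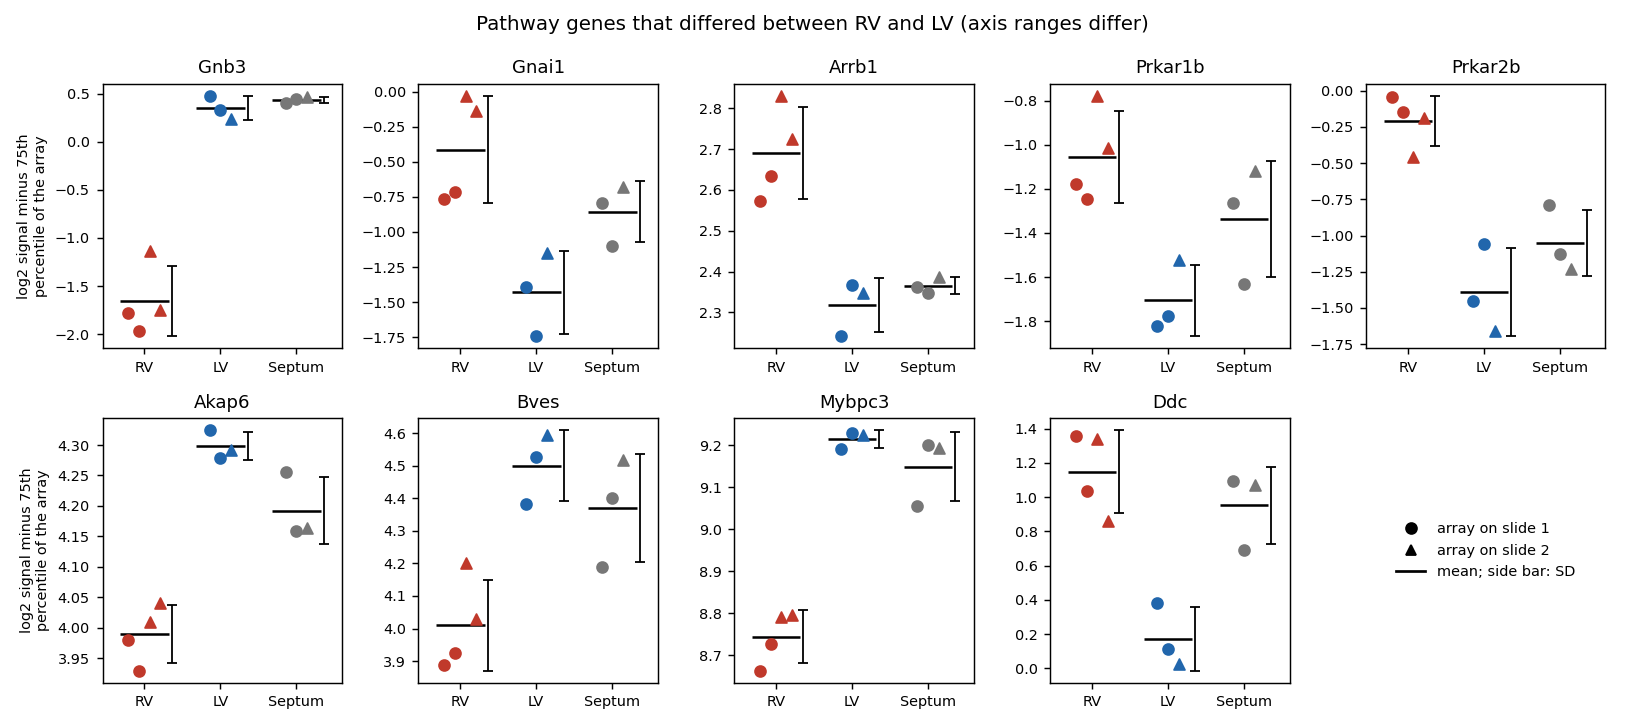
Level of the 9 pathway genes that passed for RV against LV, on each array, as log2 signal minus the 75th percentile of the array; circles are slide 1, triangles slide 2, the line is the mean and the side bar the SD. RV arrays lie apart from LV arrays in each panel, which follows in part from choosing the genes by that test on the same arrays. For Gnb3, Arrb1, Prkar2b, Akap6 and Mybpc3 the RV arrays also lie apart from the septum arrays. The share of all tested probes whose arrays lie apart was not counted.

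Of 7 receptor kinases and arrestins, Arrb1 passed, which encodes an arrestin that uncouples activated beta receptors. It was higher in RV than LV by 0.37 (adjusted p = 0.036), and 9 of the 10 fits without 1 array lost the call, all but that without RV replicate 1 (0.33 to 0.41). The main receptor kinase gene Grk2 gave -0.14 (adjusted p = 0.74). Of 11 tested genes of transmitter synthesis, uptake and breakdown, Ddc passed, the decarboxylase of catecholamine synthesis. It read 1.36, 1.04, 1.34 and 0.86 in RV, 0.38, 0.11 and 0.02 in LV, and 1.09, 0.69 and 1.07 in septum, higher in RV than LV by 0.97 (adjusted p = 0.012), with the call lost without LV replicate 2 or LV replicate 3 (0.90 to 1.08 over the 10 fits). A second Ddc probe was also higher in RV than LV, by 1.32 (adjusted p = 0.018). It was well above background on 4 RV, 1 LV and 3 septum arrays, so its LV mean rests partly on readings at background. Of 16 other settings that kept all arrays or 1 slide, the calls for RV against LV were lost in 8 for Prkar1b and Akap6, 6 for Bves, 5 for Gnai1 and Arrb1, 4 for Ddc, 3 for Mybpc3, and 1 for Gnb3 and Prkar2b. Against septum they were lost in 4 for Mybpc3, 3 for Prkar2b and 1 for Gnb3. Th and Dbh, which encode the other enzymes that make noradrenaline, gave -0.23 (adjusted p = 0.30) and 0.39 (adjusted p = 0.41).

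With the region alone in the model, no gene passed among the 3 other adrenergic and muscarinic receptors tested, 4 other adenylyl cyclases, 9 RGS proteins, 8 genes of the Gq arm and 2 subunits of the muscarinic potassium channel. Rgs10, an RGS protein gene, was closest, with RV minus LV of 0.54 (adjusted p = 0.051). Chrm1, a muscarinic receptor gene, came next, at 0.59 (adjusted p = 0.053). With the slide as a block Chrm1 passed at 0.64 (adjusted p = 0.0018). With that block, 4 of the 9 RGS proteins, which speed the turning off of G proteins, also passed for RV against LV, beside 17.6% of all probes. Rgs10 (adjusted p = 0.0053) and Rgs7 (adjusted p = 0.0097) were higher and Rgs5 (adjusted p = 0.031) and Rgs16 (adjusted p = 0.046) lower in RV. Rgs7 was well above background on 2 of the 3 LV arrays. Of the Gq arm, Itpr1, a calcium release channel, passed in the same fit as higher in RV (adjusted p = 0.041). Kcnj3 and Kcnj5, whose products form the potassium channel opened by muscarinic receptors, gave -0.14 and -0.16 for RV minus LV.

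Markers of other cell types also differed between the regions beside these genes. For RV against LV, where 3.86% of all probes passed, 3 of 7 fibroblast markers were higher in RV (Dcn, Pdgfra and Tcf21). The summed signals of the fibroblast list were 346 to 408 in RV, 225 to 275 in LV and 279 to 329 in septum. Of 4 tested Schwann cell markers, S100b was higher in RV than LV, and none of 6 tested autonomic neuron markers was called with the region alone in the model. For RV against septum, where 2.08% of all probes passed, 5 of 6 mesothelium markers were higher in RV. Of these 6 markers, 2 were well above background on every array. Calls on the others, here and with the slide as a block, may take readings at background as if they were levels. With the region alone in the model, no marker of smooth muscle (9 tested), endothelium (7), macrophages (6), blood (4) or atrial myocardium (6) was called for RV against LV or septum, and of the 10 cardiomyocyte markers Mybpc3 alone was called, lower in RV. The summed signals of the atrial list were 30 to 111 in RV, 106 to 154 in LV and 114 to 587 in septum, highest on septum array 1. The lack of atrial calls thus does not show that the pieces were alike in atrial content. With the slide as a block, 17.6% of all probes passed for RV against LV. The markers called in that fit were 5 of 6 for mesothelium, 4 of 7 for fibroblasts and 5 of 10 for adipocytes, all higher in RV. They were 5 of 9 for smooth muscle (Myh11, Tagln and Cnn1 higher and 2 lower in RV) and 4 of 7 for endothelium (2 higher, 2 lower). The calls were 1 of 6 for atrial myocardium (lower), 1 of 6 for autonomic neurons (lower) and 1 of 4 for Schwann cells (higher), and 0 for macrophages and blood. That fit called 4 of 10 cardiomyocyte markers lower in RV than in LV (Mybpc3, Ttn, Ryr2 and Actc1). It called 2 of 10 lower in RV than in septum, where 8.74% of all probes passed. The part of cell makeup in the pathway differences was not tested.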

How the data were processed

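Total RNA of frozen heart pieces was labelled with Cy3 and hybridised to Agilent mouse arrays of 1 colour. The authors deposited the intensity of each spot, background-subtracted by Feature Extraction (version 11.5.1.1), with no scaling between arrays. The authors also deposited log2 values per probe, which lay within 0.05 of those computed here for 100% of the probes once a constant was removed from each array. Here log2 of the processed intensity was taken, control and outlier spots were left out, repeat spots were averaged by probe, and each array was centred on its 75th percentile. Of 56605 probes, the 30234 that stood well above background throughout 1 or more regions were tested. A symbol was found for 32994 probes. A gene was read from its brightest tested probe.

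A model of the 10 arrays with a mean for each region was fitted with limma (version 3.58.1, R 4.3.3; 2.46 prior degrees of freedom), with Benjamini-Hochberg adjustment over all probes tested and a call at an adjusted p below 0.05. All tests were two-sided. Samples with the same number deviated together (correlations of 0.36 to 0.64 in 9 pairs of arrays), while arrays of other numbers on the same slide had correlations of 0.09 to 0.58, and the value with the replicate number as a block is given for Adcy5 and as counts for the pathway genes. The text names all 8 genes, the pathway genes called in a comparison (at most 10), and marker genes that were called, though not all of these are reported here. Genes that resemble a member across arrays were to be named for members called, and with the region alone in the model none was; those given for Adcy5 in the closing section were looked up after its values were seen. Values of Gnas, Prkaca, Prkar1a, Pln, Grk2, Th, Dbh, Chrm1, Kcnj3, Kcnj5, Fabp4, Plin4, Lep, Pparg and Lipe were chosen after they were seen. So were the genes named from blocked fits. The members and lists were chosen with earlier results of these data known.

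Alternatives were the slide or the replicate number as a block, each slide alone, other scalings, normexp background correction (on median signals, with an offset of 50), the authors' table, other filters, the mean of a gene's probes, the methods' analysis of variance with Tukey's correction in one-way form, and leaving out each array. Blocked fits without the filter or without 1 array, and all alternatives for the pathway counts, were added after the data were seen.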

Additional observations from a re-analysis of the deposited data

How the results depend on the processing

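For the 7 tested genes, 21 differences between regions were recomputed under 26 other settings. The count of genes called for RV against LV was 1 (Adcy5) with the slide as a block and 1 (Adcy5) with the replicate block, and 0 in every other setting; the counts for the other comparisons stayed at 0. No direction of a called difference changed. Among differences that were not called, these changed sign. For RV minus LV, within slide 1 alone Adra1a was 0.057 and Chrm2 -0.044. For RV minus septum, Adrb1 was -0.0217 with the slide as a block, -0.0215 with the replicate block, -0.0217 with no filter and the slide as a block, and -0.14 within slide 2 alone, while Adra1a was 0.0049 within slide 1 alone. For septum minus LV, Adra1a was 0.052 within slide 1 alone and Adra1d 0.22 within slide 2 alone. Leaving out 1 array at a time gave -0.098 to 0.20 for Adrb1 and -0.30 to 0.047 for Adra1d in RV minus septum, and in septum minus LV it gave -0.15 to 0.11 for Adra1a, -0.34 to 0.035 for Adra1d, -0.19 to 0.072 for Adcy5 and -0.16 to 0.075 for Adcy6. The cause was not tested.

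Of the pathway genes, 9 were called for RV against LV. The count was 27 with the slide as a block, 26 with the replicate block, 26 with the number as a random block, 17 by the methods' analysis of variance without adjustment, 5 with scaling by the median, 5 within slide 1 alone, 2 with no filter and 0 within slide 2 alone, where LV and septum have 1 array each that is assumed to vary like RV. Beside the first 4 of these counts, 17.6%, 14.9%, 19.2% and 13.2% of all probes passed, and beside those for septum 8.74%, 7.12%, 10.54% and 9.12%. With scaling by the median, slide 1 alone and no filter, the shares were 2.262%, 2.715% and 0.475% for RV against LV. They were 1.545%, 1.581% and 0.198% for RV against septum. For RV against septum, where 3 were called, the counts were 15, 13, 18, 16, 5, 3, 1 and 0 in these settings, 6 by the adjusted analysis of variance, 5 with quantile normalization and 5 with no filter and the slide as a block. For septum against LV, 0 were called, 1 with the random block and 2 by the unadjusted analysis of variance. Leaving out 1 array gave 3 to 7 calls for RV against LV (3 without LV replicate 2 or 3), beside 1.29% to 3.24% of all probes. It gave 1 to 6 for RV against septum, beside 0.39% to 1.79% of all probes, and 0 for septum against LV. Dim probes limit Adrb3 and Adra1d, whose levels lie near the background.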

Other observations

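Among all tested genes, those whose level followed that of Adcy5 most closely over the 10 arrays were Tmem259, Znrf1 and Gsk3a, each with a correlation of 0.99, and after the mean of each slide was removed they were Wdr77, Cln8 and Mknk2, each with a correlation of 0.99. They were looked up after the values of Adcy5 were seen, the arrays share slides and regions, and the values are a description. Adrb1 and Adcy5 had a correlation of 0.89 over the same arrays and of 0.69 after slide means were removed, whereas Adra1a and Adra1b had one of -0.87 that became -0.46.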
